A study of Mus musculus with 6 samples.

Results

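The endothelial genes of the liver were followed in RNA-Seq counts of whole livers from g*Spns1*-cKO and control mice. The 10 genes were picked by symbol, as known markers, by a rule that uses no measured value, and each matched 1 row of the 54532 genes in the deposited table. These genes and the gene lists below were nonetheless chosen with earlier results of these data known. All 10 passed the filter on low counts, which kept 15449 genes. They comprise 6 genes of liver sinusoidal endothelial cells (*Stab1*, *Stab2*, *Lyve1*, *Clec4g*, *Fcgr2b* and *Oit3*), 3 genes of endothelium in general (*Pecam1*, *Cdh5* and *Kdr*) and *Vwf*, a marker of large vessels. The g*Spns1*-cKO mice carried floxed *Spns1* alleles (*Spns1* fl/fl), with loxP sites around exon 3, and Rosa26Cre-ERT2, a Cre recombinase at the Rosa26 locus that tamoxifen activates in cells of all types, endothelial cells included. Tamoxifen was injected between the second and the third postnatal week. The methods use *Spns1* fl/fl littermates as controls, whereas the labels call the 3 control mice wild type, and the sources used here do not say whether controls received tamoxifen. They also do not give the age of the mice at harvest or whether these livers were perfused. Each group held 3 mice of C57BL/6 background with 1 library per mouse.

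The sinusoids of the liver are lined by a specialized endothelium with open pores, the fenestrae, and without a continuous basement membrane. These cells are the main scavenger endothelium of the body and take up denatured matrix, hyaluronan, modified lipoproteins and immune complexes from blood through receptors such as the stabilins, then deliver this cargo to lysosomes. Arteries, portal veins and central veins are lined by continuous endothelium, which stores von Willebrand factor, the product of *Vwf*. SPNS1 is a lysosomal membrane protein, and the comparison asks how the transcripts of these cells stand in livers of mice in which its gene was deleted.

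The libraries held between 30350002 and 35295611 counts. The smallest signal taken as detected, 3 counts, corresponded to between 0.0763 and 0.119 CPM (counts over a library size scaled by TMM, a method that centers most genes), and the member with the fewest counts in any library was *Lyve1* with 57. *Spns1* stood between 34.6 and 50.7 CPM in control livers and between 17.8 and 30.6 CPM in g*Spns1*-cKO livers, without overlap (log2 fold change −0.87, SE 0.25, edgeR adjusted p = 0.0300). The groups differed widely, with 21.3% of all genes tested called higher and 20.5% called lower in g*Spns1*-cKO livers. The scaling sets the zero of every change below: over all genes, the median log2 fold change was 0.01 with TMM, 0.14 with upper-quartile scaling and 0.46 with the library size alone. Called genes were higher in 50.9%, 64.7% and 88.3% of cases with these 3 scalings. Ratios between genes of the same library do not depend on the scaling and are given beside the changes.

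Of the 10 members, 6 rose (*Stab2*, *Lyve1*, *Fcgr2b*, *Pecam1*, *Cdh5* and *Kdr*), against 21.3% of all genes tested, and 4 (*Stab1*, *Clec4g*, *Oit3* and *Vwf*) did not pass the threshold of 0.05 on edgeR's adjusted p. The number that fell was 0 by edgeR, against 20.5% of all genes tested, also at an unadjusted p under 0.05 and by DESeq2 and limma-voom. In 8 of the 10, all 3 g*Spns1*-cKO libraries lay above all 3 control libraries, which held for 27.1% of all genes tested, and in 0 of the 10 did they all lie below, which held for 26.9%. The median log2 fold change of the members was 0.47, beside 0.01 for all genes. The data are from bulk tissue, where a change in the number of endothelial cells and a change in RNA per cell cannot be told apart.

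**Figure D1:**
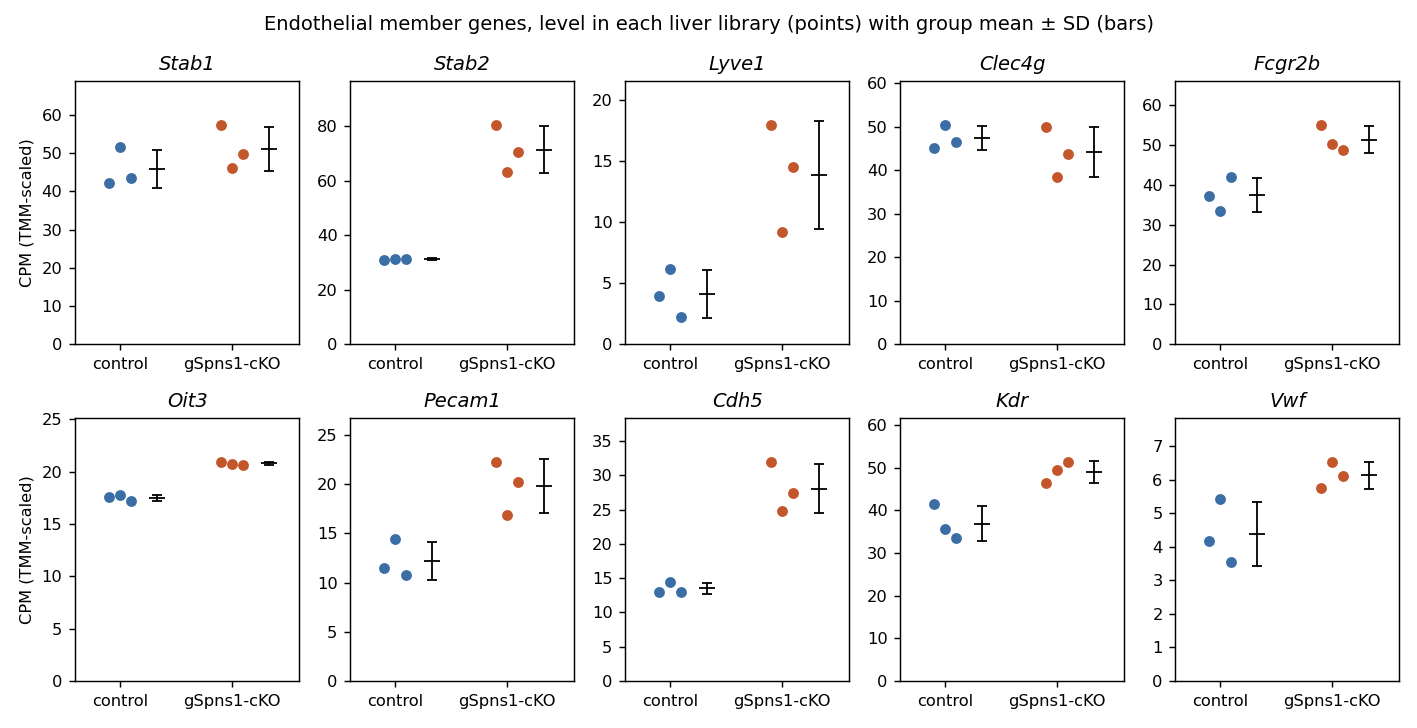
Level of each member gene in CPM (linear axes from 0) in the 3 control and 3 g*Spns1*-cKO libraries, with the group mean ± SD as bars. *Stab2*, *Lyve1* and *Cdh5* show the widest gaps between groups, and the points of *Stab1* and *Clec4g* overlap.

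*Stab2* and *Stab1* encode the stabilins, large scavenger receptors of sinusoidal endothelium, and *Stab2* is its main receptor for clearing hyaluronan from blood. *Stab2* measured 30.9, 31.4 and 31.3 CPM in control replicates 1, 2 and 3 and 80.4, 63.2 and 70.4 CPM in the g*Spns1*-cKO replicates. The control libraries were nearly equal and the lowest g*Spns1*-cKO library was above the highest of them. The log2 fold change was 1.19 (SE 0.11, 95% confidence interval 0.94 to 1.44, edgeR adjusted p = 4.5e-05), a 2.29-fold rise. *Stab1* measured 42.3, 51.7 and 43.6 CPM in control libraries and 57.4, 46.0 and 49.8 CPM in g*Spns1*-cKO libraries. The groups overlapped, and the log2 fold change of 0.15 (SE 0.12, interval −0.12 to 0.42) did not pass the threshold (edgeR adjusted p = 0.337). With the library size alone it was 0.60 (edgeR adjusted p = 0.00258). The interval of *Stab1* lay wholly below that of *Stab2*.

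The pair was also compared within each library. Levels of different genes were compared per length, in the deposited FPKM values (counts over gene length and a library total). On the log2 scale, *Stab2* over *Stab1* in FPKM was −0.22, −0.48 and −0.25 in control replicates 1, 2 and 3 and 0.72, 0.69 and 0.73 in the g*Spns1*-cKO replicates. *Stab1* was thus the higher stabilin in every control library and *Stab2* in every g*Spns1*-cKO library, with a difference between group means of 1.03. *Stab1* shares 112 exonic bases with *Nt5dc2* on the opposite strand (mean level 8.99 CPM). *Stab2* shares 141 with *Gm16268*, also on the opposite strand (0.269 CPM). The sources used here do not say whether counting used strand.

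*Clec4g* encodes LSECtin, a C-type lectin of sinusoidal endothelium. It measured 45.2, 50.5 and 46.6 CPM in control libraries and 50.1, 38.6 and 43.8 CPM in g*Spns1*-cKO libraries. The groups overlapped (log2 fold change −0.10, SE 0.12, interval −0.36 to 0.16, edgeR adjusted p = 0.511), and the sign of this change flipped to 0.34 with the library size alone (edgeR adjusted p = 0.0316) and to 0.025 with upper-quartile scaling. Relative to the median of all genes it was −0.12 with each of the 3 scalings. *Stab2* over *Clec4g* in FPKM was −2.38, −2.51 and −2.40 on the log2 scale in control replicates 1, 2 and 3 and −1.15, −1.12 and −1.15 in the g*Spns1*-cKO replicates. *Clec4g* was the higher gene in all 6 libraries, and the gap narrowed without overlap by 1.30 between group means.

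**Figure D2:**
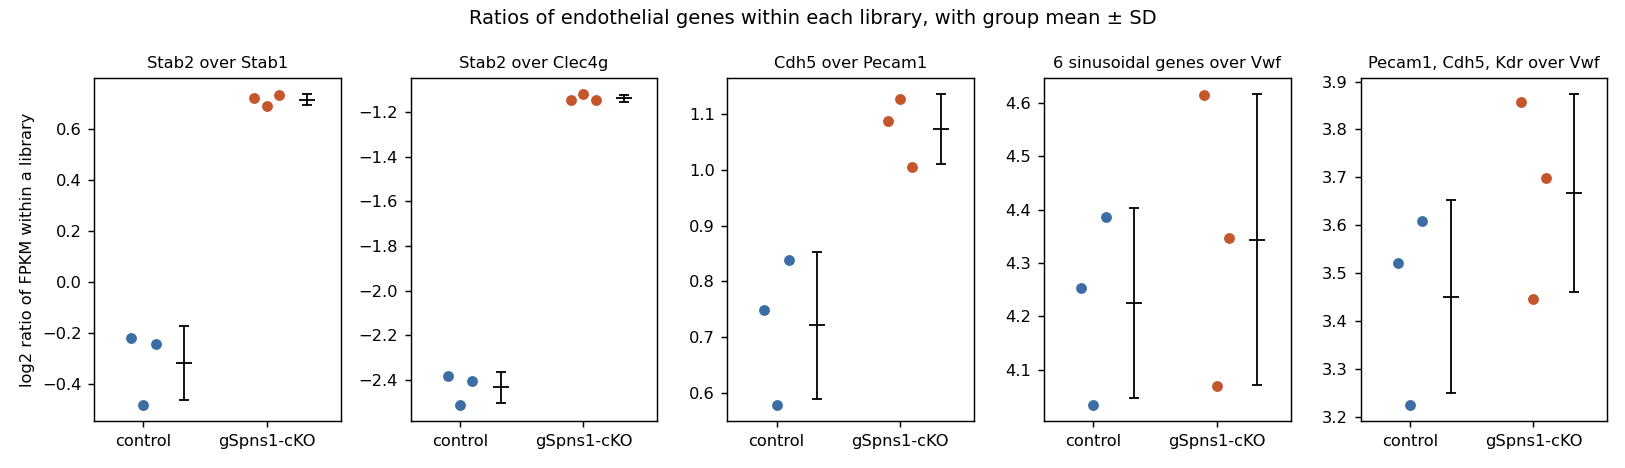
Log2 ratios of FPKM between endothelial genes within each library, with the group mean ± SD as bars. Axes differ between panels. *Stab2* over *Stab1*, *Stab2* over *Clec4g* and *Cdh5* over *Pecam1* separate the groups, whereas the ratios to *Vwf* overlap.

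The bases before the RefSeq transcription starts of *Stab2*, *Stab1* and *Clec4g* are shown because these 3 sinusoidal genes parted within the same libraries. Promoter sequences from RefSeq (GRCm38.p6) were matched for 5 of the 10 members, also *Fcgr2b* and *Kdr*, and not for *Lyve1*, *Oit3*, *Pecam1*, *Cdh5* and *Vwf*. The 250 bases before each RefSeq start are written 5′ to 3′ on the strand of the gene, and capitals mark the hexamers AGGAAG and CGGAAG, which ETS factors of endothelium are known to bind, on either strand (CTTCCT and CTTCCG are the same motifs read from the other strand).
Stab2, chr10:87007943-87008192, minus strand: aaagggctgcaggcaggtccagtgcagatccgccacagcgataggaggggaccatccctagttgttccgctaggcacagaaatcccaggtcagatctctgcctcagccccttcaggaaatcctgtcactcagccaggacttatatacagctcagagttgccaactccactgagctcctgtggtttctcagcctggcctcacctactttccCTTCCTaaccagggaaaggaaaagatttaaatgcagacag
Stab1, chr14:31168642-31168891, minus strand: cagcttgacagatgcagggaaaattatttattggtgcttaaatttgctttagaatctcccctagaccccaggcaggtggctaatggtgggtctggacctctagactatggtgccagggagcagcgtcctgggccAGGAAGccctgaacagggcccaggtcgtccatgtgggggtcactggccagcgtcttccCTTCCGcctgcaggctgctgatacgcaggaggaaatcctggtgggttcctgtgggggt
Clec4g, chr8:3720652-3720901, minus strand: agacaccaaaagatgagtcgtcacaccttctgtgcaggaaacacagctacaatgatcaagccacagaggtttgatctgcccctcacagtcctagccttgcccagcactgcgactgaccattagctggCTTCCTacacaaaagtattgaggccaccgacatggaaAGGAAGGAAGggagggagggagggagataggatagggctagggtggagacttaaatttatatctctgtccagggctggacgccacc

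*Stab2* held 1 match to AGGAAG, *Stab1* held 1 to AGGAAG and 1 to CGGAAG, and *Clec4g* held 3 to AGGAAG, of which 2 overlap each other. The starts of RefSeq and of the deposited gene models can differ: 83 of the 250 bases of the *Stab2* window, with its 1 match, and all 250 of *Fcgr2b* lie inside the gene as deposited, as do 3 of *Kdr* and 0 of *Stab1* and *Clec4g*. *Fcgr2b* and *Kdr* held neither hexamer in this window. AGATAA, a motif of GATA factors, was searched on both strands and was not in the window of any of the 5. Of 32851 promoters of the same length, 39.2% held AGGAAG or CGGAAG and 9.99% held AGATAA. A match is a description of the letters in this window and not a site of binding.

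*Lyve1* encodes a hyaluronan-binding membrane protein of sinusoidal and lymphatic endothelium that some tissue macrophages also carry. It measured 3.95, 6.14 and 2.25 CPM in control libraries and 17.9, 9.15 and 14.5 CPM in g*Spns1*-cKO libraries. The groups did not overlap, but the values spread widely within each group. The log2 fold change of 1.74 (SE 0.39, interval 0.80 to 2.68, edgeR adjusted p = 0.0126) was the largest and the least precise of the 10. Without control replicate 1 it was 1.69 and no longer passed (edgeR adjusted p = 0.0564). *Lyve1* over *Stab2* in FPKM averaged −1.46 on the log2 scale in controls and −0.83 in g*Spns1*-cKO livers, and the groups overlapped.

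*Fcgr2b* encodes an inhibitory Fc gamma receptor, which sinusoidal endothelium uses to take up small immune complexes and which macrophages and B cells also carry. It measured 37.2, 33.4 and 42.0 CPM in control libraries and 55.1, 50.4 and 48.7 CPM in g*Spns1*-cKO libraries. All g*Spns1*-cKO libraries were higher (log2 fold change 0.45, SE 0.11, interval 0.20 to 0.71, edgeR adjusted p = 0.00965). Markers of B cells summed to between 1.42 and 2.38 CPM in control and between 2.48 and 3.09 CPM in g*Spns1*-cKO livers, and 0 of 4 were called by edgeR, at an unadjusted p under 0.05, by DESeq2 or by limma-voom. *Oit3*, a secreted zona pellucida domain protein gene that marks sinusoidal endothelium, measured 17.6, 17.8 and 17.2 CPM in control libraries and 21.0, 20.7 and 20.7 CPM in g*Spns1*-cKO libraries. Both groups were tight and did not overlap. The log2 fold change of 0.25 (SE 0.10) had an edgeR adjusted p of 0.0769 and an interval of 0.02 to 0.48 before adjustment. *Oit3* passed with a filter of 10 counts in every library (0.29, edgeR adjusted p = 0.0440), with upper-quartile scaling (0.38, edgeR adjusted p = 0.0157) and with the library size alone (0.69, edgeR adjusted p = 0.000445).

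The 3 genes of endothelium in general rose. *Cdh5*, which encodes VE-cadherin, the cadherin of endothelial junctions, measured 13.0, 14.5 and 13.0 CPM in control libraries and 32.0, 24.8 and 27.4 CPM in g*Spns1*-cKO libraries. The groups were well apart (log2 fold change 1.06, SE 0.13, interval 0.78 to 1.34, edgeR adjusted p = 0.000163), a 2.08-fold rise. *Pecam1*, which encodes the junction protein CD31 that platelets and leukocytes also carry, measured 11.5, 14.4 and 10.7 CPM in control libraries and 22.3, 16.8 and 20.2 CPM in g*Spns1*-cKO libraries. The groups did not overlap (log2 fold change 0.69, SE 0.15, interval 0.36 to 1.03, edgeR adjusted p = 0.00480). *Cdh5* over *Pecam1* in FPKM was 0.75, 0.58 and 0.84 on the log2 scale in control replicates 1, 2 and 3 and 1.09, 1.13 and 1.01 in the g*Spns1*-cKO replicates, so *Cdh5* gained on *Pecam1* without overlap, by 0.35 between group means. *Kdr* encodes VEGFR2, the main signaling receptor for VEGF-A. It measured 41.5, 35.6 and 33.5 CPM in control libraries and 46.3, 49.4 and 51.4 CPM in g*Spns1*-cKO libraries. The groups did not overlap (log2 fold change 0.41, SE 0.11, interval 0.16 to 0.66, edgeR adjusted p = 0.0140). The call was lost without control replicate 2 (0.38, edgeR adjusted p = 0.05003), control replicate 3 (0.34, edgeR adjusted p = 0.0661) or g*Spns1*-cKO replicate 3 (0.38, edgeR adjusted p = 0.0618).

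*Vwf*, the large-vessel member, measured 4.16, 5.42 and 3.56 CPM in control libraries and 5.75, 6.54 and 6.11 CPM in g*Spns1*-cKO libraries. The groups were apart by a narrow margin. The log2 fold change of 0.48 (SE 0.20, interval 0.04 to 0.92 before adjustment) had an edgeR adjusted p of 0.0727. Leaving out 1 mouse at a time gave 0.34 (without control replicate 3, edgeR adjusted p = 0.220) to 0.66 (without control replicate 2, edgeR adjusted p = 0.0311), and the latter was the single such fit in which it passed. It also passed with upper-quartile scaling (0.61, edgeR adjusted p = 0.0338) and with the library size alone (0.92, edgeR adjusted p = 0.00379).

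**Figure D3:**
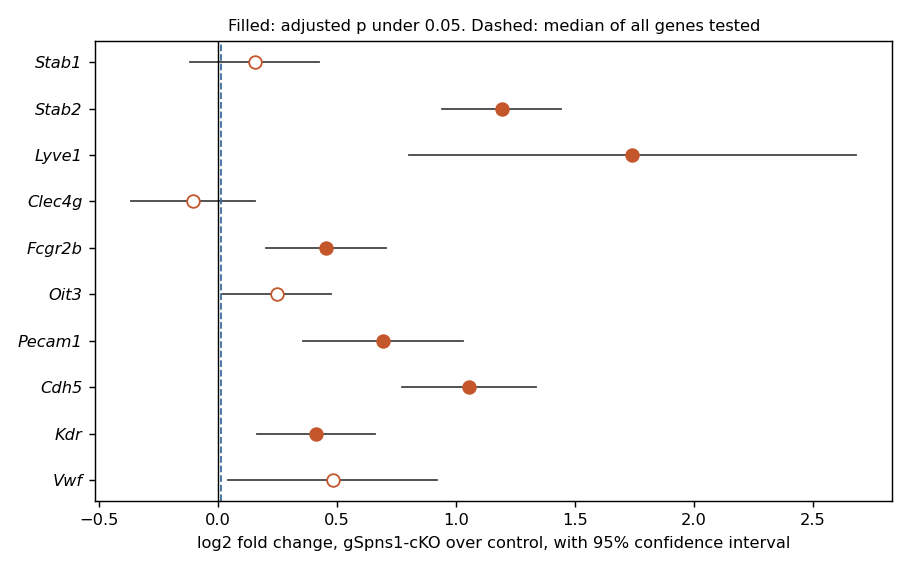
Log2 fold change of each member, g*Spns1*-cKO over control, with its 95% confidence interval. Filled points passed an adjusted p of 0.05, and the dashed line is the median of all genes tested, 0.01. The interval of *Lyve1* runs from 0.80 to 2.68 and is the widest, and those of *Stab1* and *Clec4g* span 0.

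The ratio of the 6 sinusoidal members to *Vwf*, the single large-vessel member, overlapped between the genotypes. A ratio to 1 gene does not describe the balance of vessel types. The mean log2 FPKM of the 6 sinusoidal members minus that of *Vwf* was 4.25, 4.03 and 4.39 in control replicates 1, 2 and 3 and 4.62, 4.07 and 4.35 in the g*Spns1*-cKO replicates. The groups overlapped and their means differed by 0.12, less than the SD within either group (0.18 in control and 0.27 in g*Spns1*-cKO). The same measure for *Pecam1*, *Cdh5* and *Kdr* over *Vwf* averaged 3.45 and 3.67 with overlap, and for the sinusoidal over these 3 general members 0.77 and 0.68 with overlap. The changes of the sinusoidal members ran from −0.10 (*Clec4g*) to 1.74 (*Lyve1*), and that of *Vwf* lay inside this range.

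The order of the levels was read from the FPKM values. In control livers *Clec4g* was highest at 19.1 ± 1.22 FPKM (SD, n = 3), followed by *Fcgr2b* at 6.44, *Oit3* at 6.23, *Stab1* at 4.42, *Kdr* at 4.05, *Stab2* at 3.54, *Cdh5* at 3.18, *Pecam1* at 1.95, *Lyve1* at 1.40 and *Vwf* at 0.271. Of these neighbors, *Fcgr2b* and *Oit3*, *Stab1* and *Kdr*, and *Pecam1* and *Lyve1* overlapped between libraries. In g*Spns1*-cKO livers the order was *Clec4g* at 17.7 ± 2.36 FPKM, *Fcgr2b* at 8.76, *Stab2* at 8.04, *Oit3* at 7.35, *Cdh5* at 6.59, *Kdr* at 5.36, *Stab1* at 4.89, *Lyve1* at 4.69, *Pecam1* at 3.13 and *Vwf* at 0.377. There the neighbors from *Fcgr2b* to *Cdh5* and from *Kdr* to *Pecam1* overlapped. *Stab2* moved from the sixth to the third place and *Stab1* from the fourth to the seventh. Of the summed FPKM of the 10 genes, *Clec4g* made up 37.8% ± 0.834 in control and 26.4% ± 0.753 in g*Spns1*-cKO livers, *Stab2* 6.996% ± 0.244 and 12.0% ± 0.232, *Cdh5* 6.29% ± 0.142 and 9.83% ± 0.278, and *Lyve1* 2.73% ± 1.19 and 6.90% ± 1.59 (SD, n = 3). *Stab1* made up 8.73% ± 0.608 and 7.31% ± 0.126, and *Pecam1* 3.83% ± 0.442 and 4.67% ± 0.217. The shares of *Clec4g* and *Stab1* were thus lower and those of *Stab2*, *Cdh5*, *Lyve1* and *Pecam1* higher in g*Spns1*-cKO livers, without overlap. Shares of 1 sum are bound together, so a share can fall because other genes rise. In CPM, *Clec4g* did not pass (log2 fold change −0.10, edgeR adjusted p = 0.511).

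Each member was then set against the summed CPM of the other general endothelial genes, 32 genes such as *Tie1*, *Eng* and *Ptprb*, in the same library. The largest terms of this sum were *Eng* (means of 65.8 CPM in control and 69.8 CPM in g*Spns1*-cKO livers), *Ptprb* (42.4 and 67.0) and *S1pr1* (30.6 and 35.1). This reference stood between 286 and 307 CPM in control livers and between 377 and 394 CPM in g*Spns1*-cKO livers. Relative to it, *Stab2* (difference of mean log2 ratios 0.81), *Lyve1* (1.44) and *Cdh5* (0.67) were higher in all g*Spns1*-cKO libraries than in all control libraries. *Clec4g* (−0.49) and *Oit3* (−0.13) were lower in all g*Spns1*-cKO libraries. The share of all genes set apart on this ratio was not computed. In CPM it was 27.1% above and 26.9% below. The groups overlapped for *Stab1* (−0.22), *Fcgr2b* (0.08), *Pecam1* (0.32), *Kdr* (0.04) and *Vwf* (0.13). *Fcgr2b*, *Pecam1* and *Kdr*, which rose in CPM, thus kept a ratio to the other endothelial genes that overlapped between the groups.

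**Figure D4:**
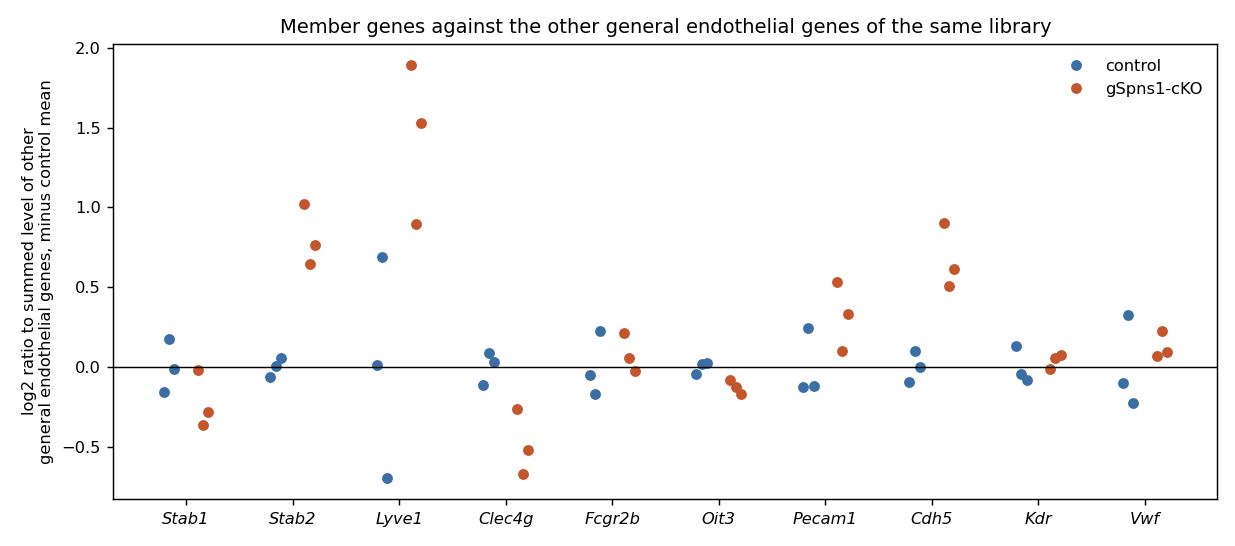
Log2 ratio of each member to the summed CPM of the other general endothelial genes of the same library, with the control mean set to 0 and 1 point per library. *Stab2*, *Lyve1* and *Cdh5* lie above and *Clec4g* and *Oit3* below the control points without overlap.

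Other endothelial genes were read from lists of known markers, also written with earlier results of these data known. Over 97 genes outside the 10 members, called the other endothelial genes below, 89 were tested, 42 rose and 4 fell. These are 47.2% and 4.49%, beside 21.3% called higher and 20.5% called lower of all genes tested. The same shares of all genes stand beside the counts of every list below. Their median log2 fold change was 0.55, beside 0.01 for all genes. They include ligands and receptors of endothelial growth factors, and which cells made these transcripts was not tested. Genes on several lists, such as *Flt4* and *Acvrl1*, were counted once in this total and again in each of their lists below. Lymphatic genes (median −0.04, 3 tested) are not in this total and are given at the end. Among 15 other sinusoidal genes 8 rose and 0 fell (0 also at an unadjusted p under 0.05, by DESeq2 and by limma-voom), with a median of 0.38. *Bmp6*, which encodes a BMP of sinusoidal endothelium that sets hepcidin in hepatocytes, went from 5.39 ± 1.15 to 10.2 ± 2.39 CPM (SD, n = 3, log2 fold change 0.91, edgeR adjusted p = 0.00763). It shares 224 exonic bases with *Txndc5* on the opposite strand, whose mean level was 172 CPM. The part of *Txndc5* reads in the *Bmp6* counts was not tested. *Rspo3* changed by 0.85, the mannose receptor gene *Mrc1* by 0.75 and *Flt4*, the receptor for VEGF-C, by 0.75, each called. *Rspo3* is a Wnt enhancer of the central vein, so this list is not limited to the sinusoids. *Maf*, *Bmp2*, *Gpr182* and *Gata4* were the other 4 that rose. *Dnase1l3* (−0.16), *Ehd3* (0.08), *Kit* (−0.02), *Wnt2* (0.06) and *Wnt9b* (−0.13) did not pass, nor did *Plxnc1* and *F8*.

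Among the other general endothelial genes, 13 of 31 tested rose and 0 fell (0 also at an unadjusted p under 0.05, by DESeq2 and by limma-voom), with a median of 0.40, and *Aplnr* had too few counts to test. The 4 largest changes, leaving out genes whose mean over the 6 libraries was under 1 CPM, were in *Cd93* (1.61), a lectin-like receptor, *Acvrl1* (1.16), the ALK1 receptor for BMP9, and the transcription factor genes *Sox18* (1.10) and *Fli1* (1.07). *Eng* (0.09), *Egfl7* (−0.10), *Tie1* (0.14) and *Nos3* (0.01) did not pass. *Eng* shares 61 exonic bases with *Fpgs* (127 CPM) and *Egfl7* shares 64 with *Agpat2* (183 CPM), both on the opposite strand. Among arterial and venous genes, 6 of 15 tested rose and 1 fell, with a median of 0.56, and *Bmx*, *Sele* and *Sema3g* had too few counts. *Hey1*, a Notch target of arterial cells, went from 0.494 ± 0.304 to 2.96 ± 0.621 CPM (SD, n = 3, log2 fold change 2.55, edgeR adjusted p = 0.000727). It met the mean of 1 CPM asked of named genes only through the g*Spns1*-cKO libraries. *Thbd* (1.51), which encodes thrombomodulin, *Unc5b* (1.23), a netrin receptor gene, and *Ltbp4* (0.99) followed. *Nr2f2*, which encodes the venous factor COUP-TFII, was called lower (−0.41, edgeR adjusted p = 0.0237) but stood at 0.04 with the library size alone and lost the call with upper-quartile scaling and in 4 of the 6 fits without 1 mouse.

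The list of capillary and basement membrane genes had 4 called higher and 1 called lower of 9, with a median of 0.68. *Nid1*, the basement membrane linker nidogen, went from 9.32 ± 1.42 to 42.3 ± 3.96 CPM (SD, n = 3, log2 fold change 2.18, edgeR adjusted p = 4.97e-06). *Cd34*, a sialomucin gene of continuous capillaries and progenitor cells, changed by 1.97, and the collagen IV genes *Col4a1* and *Col4a2*, which lie head to head, changed by 1.43 and 1.40. Stellate cells also make nidogen and collagen IV. *Cav1*, which encodes the coat protein of caveolae, was called lower (−0.53, edgeR adjusted p = 0.0417), but not with the library size alone (−0.09), with upper-quartile scaling, with the filter of 10 counts or in 4 of the 6 fits without 1 mouse. *Col15a1*, a collagen gene of basement membrane zones, was lower in all g*Spns1*-cKO libraries than in all control libraries (−0.71) and did not pass by edgeR (adjusted p = 0.0693), but was called lower by DESeq2 (adjusted p = 0.0320) and limma-voom (adjusted p = 0.0475). *Plvap*, which encodes the protein of fenestral diaphragms, did not pass (0.17).

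Among ligands and receptors of endothelial growth factors, 10 of 21 tested rose and 2 fell, with a median of 0.40. *Figf* is an older symbol of *Vegfd* and had no row of its own, and *Apln*, *Pgf* and *Aplnr* had too few counts. *Angpt1* and *Angpt2*, which encode the angiopoietins, rose from 0.339 ± 0.133 to 1.82 ± 0.280 CPM and from 0.845 ± 0.209 to 2.13 ± 0.432 CPM (SD, n = 3, log2 fold changes 2.40 and 1.34). Both met the mean of 1 CPM asked of named genes only through the g*Spns1*-cKO libraries. *Esm1*, a VEGF-induced proteoglycan gene of sprouting endothelium, changed by 2.05 (edgeR adjusted p = 0.00126), and *Acvrl1* is given above. *Nrp2* fell by 0.87 (edgeR adjusted p = 0.000775) and *Nrp1* by 0.77 (edgeR adjusted p = 0.0115) on the log2 scale. Both encode neuropilins, co-receptors of VEGF receptors that other liver cells also carry, and *Nrp1* lost its call with the library size alone (−0.33). *Vegfa* did not pass (0.35, edgeR adjusted p = 0.155). Among genes of endothelial activation, 4 of 6 tested rose, and *Sele* and *Madcam1* had too few counts. *Vcam1*, an adhesion receptor for leukocytes, went from 13.3 ± 3.40 to 56.2 ± 4.64 CPM (SD, n = 3, log2 fold change 2.09, edgeR adjusted p = 3.14e-05), *Cx3cl1* changed by 1.87, *Icam1* by 1.07 and *Jam2* by 0.95. *Cx3cl1*, at a control mean of 0.712 CPM, also met the mean of 1 CPM only through the g*Spns1*-cKO libraries.

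**Figure D5:**
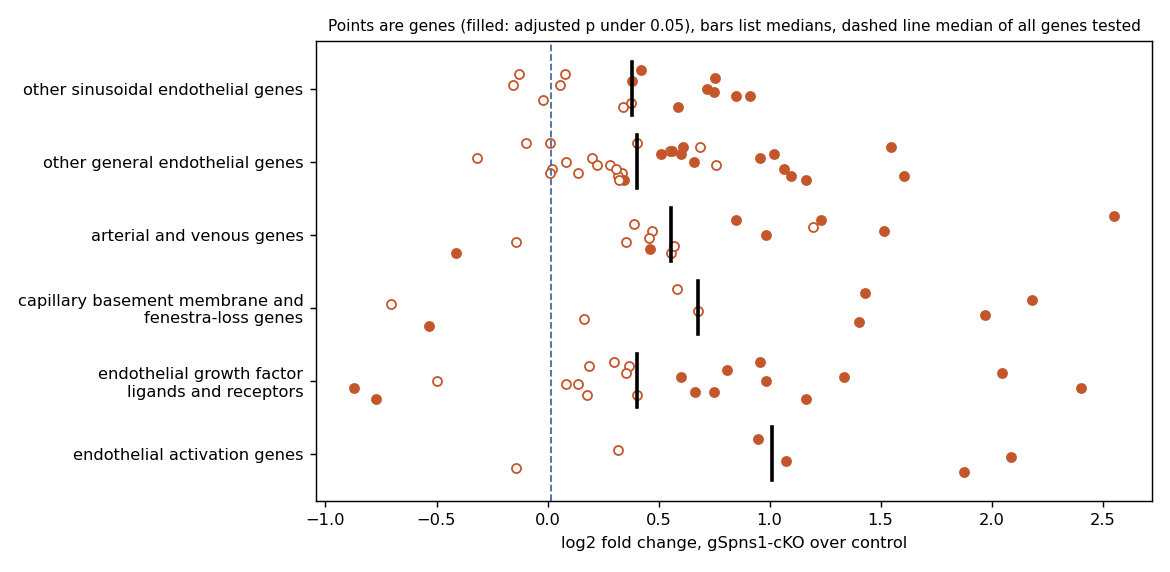
Log2 fold changes of single genes (points, filled where the adjusted p was under 0.05) in 6 lists of endothelial genes outside the members, with list medians as bars and the median of all genes as a dashed line. These 6 medians run from 0.38 to 1.01, and the dashed line is at 0.01. Lymphatic genes (median −0.04, 3 genes tested) are not drawn.

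Markers of other cells moved with these genes. Of all genes tested, 21.3% were called higher and 20.5% lower, beside the counts that follow. Of 11 hepatocyte markers 7 fell and 0 rose by edgeR, and the counts that fell and rose were 9 and 1 with DESeq2, 5 and 1 with upper-quartile scaling and 3 and 1 with the library size alone. Their summed level lay between 115192 and 132396 CPM in control and between 67733 and 78816 CPM in g*Spns1*-cKO libraries. Of 9 Kupffer cell markers 7 rose, with summed levels of 678 to 824 and 699 to 1087 CPM, which include *C6*, a complement gene of hepatocytes as well, at means of 429 and 67.2 CPM. Of 9 markers of infiltrating macrophages 8 rose, from summed levels of 60.7 to 76.9 CPM to 339 to 405 CPM. None of these macrophage markers had a group mean of 0, and *Gpnmb* was at 0.589 and 70.4 CPM. *Stab1*, *Lyve1*, *Fcgr2b*, *Mrc1*, *Maf*, *Vcam1* and *Icam1* are also known in macrophages, and the part of these cells in their levels was not tested. Nor was the part of macrophages tested for the other genes of the lists, such as *Cd93*, *Thbd* and *Fli1*. Without *Mrc1* and *Maf*, 40 of 87 other endothelial genes rose and 4 fell. Of 9 stellate cell markers 7 rose, with summed levels of 198 to 223 and 513 to 562 CPM, and their part in *Nid1*, *Col4a1*, *Col4a2* and *Angpt1* was not tested. All 6 cholangiocyte markers rose (44.2 to 62.9 and 172 to 280 CPM). *Spp1* is in this list and in that of infiltrating macrophages, at means of 44.6 CPM in control and 195 CPM in g*Spns1*-cKO livers. It made up most of the cholangiocyte sum, so the sums of these 2 lists are not independent. All 4 neutrophil markers tested also rose (3.09 to 5.03 and 9.53 to 15.3 CPM).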

How the data were processed

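RNA-Seq counts of 6 mouse livers, 3 control and 3 g*Spns1*-cKO with 1 library per mouse, were analyzed. Per the labels, poly-A RNA was sequenced by a commercial service and processed with fastp, HISAT2 2.0.5 and featureCounts 1.5.0-p3 on mm10. The authors deposited counts per gene, not normalized, and FPKM, which divide them by gene length and a library total. The deposited group means (a signal), log2 fold changes, p-values and adjusted p-values of the authors' own comparison were not used.

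Genes were filtered by filterByExpr and compared by the quasi-likelihood test of edgeR 4.0.16 (R 4.3.3) with TMM scaling, a robust fit, no covariate and Benjamini-Hochberg adjustment over all 15449 genes. The threshold was an adjusted p of 0.05. The SE is the size of the log2 fold change over the square root of F. With 3 mice against 3 an exact permutation test cannot go below p = 0.1, so p-values rest on the model of edgeR. Depth was 30350002 to 35295611 counts, and counts without molecular identifiers allow for counting error only. Coordinates of all 10 members matched GENCODE M21 (GRCm38). The scripts were tested on simulated data.

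The members and all gene lists were chosen with earlier results of these data known. All members were named. From each endothelial list, genes whose mean over the 6 libraries was under 1 CPM were left out. The 4 called genes with the largest change in each direction were then named, with those that could not be tested. *Hey1*, *Angpt1*, *Angpt2* and *Cx3cl1* met this mean only through the g*Spns1*-cKO libraries. Other genes named for values that did not pass were chosen after their values were seen, as were the pairs set as ratios. Genes most like *Stab2* and *Vwf* were the 5 with the smallest root mean square difference of centered log2 CPM (pseudocount 0.5), leaving out genes whose mean was under 5 CPM, and 1 gene that this rule selects is not reported here.

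Alternatives were DESeq2 1.42.0, limma-voom (limma 3.58.1), library size only, upper-quartile scaling, TMM without the 50 most abundant genes, filters of 1 count in any library and of 10 in every library, a replicate block, FPKM for the ratio to *Vwf* (gene length cancels in the difference between groups, so it cannot change it) and leaving out each mouse. The ratio to the other general endothelial genes and the lists without *Mrc1* and *Maf* were added after the data were seen.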

Additional observations from a re-analysis of the deposited data

How the results depend on the processing

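Over 14 alternative fits of the 10 members, 127 of 140 changes kept their direction and their side of the threshold, 7 newly passed, 4 no longer passed and 2 reversed. Both reversals were *Clec4g*, at 0.34 with the library size only and 0.025 with upper-quartile scaling. With the library size only, 7289 genes were called higher and 970 lower, in place of 3286 and 3166, all 10 members were called higher in place of 6, and 71 other endothelial genes were called higher and 1 lower in place of 42 and 4. Upper-quartile scaling called 8 members higher, 51 other endothelial genes higher and 2 lower, and over all genes 4111 higher and 2240 lower. The scaling moved the median of all genes, as given above, and the cause of these shifts was not tested. Leaving out 1 mouse at a time gave 5 to 6 members called higher and none lower, 34 to 40 other endothelial genes higher and 2 to 4 lower, and 2365 to 3213 genes higher and 2125 to 3216 lower over all genes. With the replicate block 6 members, 41 other endothelial genes higher and 4 lower, and 3084 genes higher and 3016 lower over all genes were called. Whether the replicate numbers pair the mice is not known. Same-numbered libraries deviated from their group means with correlations of 0.07, 0.03 and −0.006, and not every library correlated best with its own number. With 3 libraries per group, such correlations cannot exclude a pairing. *Lyve1*, with 57 to 189 counts in control libraries, and *Vwf*, with 90 to 251 counts over all 6, had the widest intervals, and what part depth had in this was not tested.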

Other observations

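Markers of lymphatic endothelium, platelets and dividing cells were also read. The 3 lymphatic genes tested had a median log2 fold change of −0.04. Of them *Reln*, which stellate cells also express, rose (40.5 to 66.9 CPM, log2 fold change 0.73, edgeR adjusted p = 0.000731), *Prox1*, which hepatocytes also express, measured 85.1 and 82.7 CPM, *Pdpn* measured 0.661 and 0.565 CPM, and *Mmrn1* and *Ccl21a* had too few counts to test. Of the platelet genes *Pf4*, which macrophages also express, rose (0.415 to 2.02 CPM, log2 fold change 2.27, edgeR adjusted p = 0.000822), whereas *Itga2b* (−0.62) and *Gp1ba* (−0.73) did not pass and *Ppbp* and *Gp9* could not be tested. Of 7 T and NK cell markers *Nkg7* and *Klrb1c* rose and *Cd4* fell. These are 28.6% and 14.3%, near the 21.3% called higher and 20.5% called lower of all genes tested. The 7 summed to between 4.66 and 5.23 CPM in control and between 5.84 and 7.17 CPM in g*Spns1*-cKO livers. Of 3 smooth muscle markers tested *Myh11* rose. The number of cycling cell genes called was 0 of 4 by edgeR, at an unadjusted p under 0.05, by DESeq2 and by limma-voom, but without g*Spns1*-cKO replicate 1 *Cdk1* (−1.33) and *Birc5* (−1.48) were called lower. That library held *Top2a* at 3.86 CPM, beside 0.521 and 0.407 CPM in the other g*Spns1*-cKO libraries.

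The 5 genes of 9731 whose centered log2 CPM over the 6 libraries lay nearest to *Stab2* were *Tmsb4x* (root mean square difference 0.043), *2510009E07Rik* (0.072), *Rgl1* (0.079), *Il10rb* (0.082) and *Btnl9* (0.082). Among those nearest to *Vwf* were *Abca7* (0.060), *Itga3* (0.072), *Krba1* (0.074) and *Rpap1* (0.079). With 6 libraries in 2 groups, this likeness rests mainly on the size of the change between the groups.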
